A study of Homo sapiens with 12 samples.

Results

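The 10 genes described here are the transcription factors ATF4, ATF3, ATF5, DDIT3 and CEBPB and the targets TRIB3, CHAC1, SESN2, ASNS and DDIT4, which act in the ATF4 and DDIT3 stress response. They were chosen by symbol, and each was found by its Ensembl ID in a table of raw RNA-seq counts with 60669 IDs. All 10 passed the filter on low counts that left 18720 genes for testing. The table held 12 libraries of polyA RNA from 6 cell lines that the study calls ovarian cancer lines. Each line was given 8 µM quinacrine (QC, an acridine antimalarial drug) for 6 h or buffer alone, called vehicle here. HeyA8, SKOV3 and OV2008 are labelled sensitive to chemotherapy. HeyA8_MDR, SKOV3_TR and OV2008_C13 are labelled resistant and are the partners of those lines in that order, resistant to carboplatin, taxol and cisplatin according to the study's methods. Each line gave 1 vehicle library and 1 QC library, so no difference within a line has a replicate check, and the 6 lines served as the replicates of the QC effect. They are related in pairs, so they are not 6 independent replicates. Over 8239 genes, the log2 changes with QC correlated at 0.72 in the OV2008 pair, 0.43 in the HeyA8 pair and 0.14 in the SKOV3 pair. Between lines of different pairs the correlation ran from -0.11 to 0.37. The tests of the QC effect did not allow for this.

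These genes are the transcriptional arm of the integrated stress response. Kinases that sense unfolded protein, amino acid shortage, double-stranded RNA or mitochondrial and haem stress phosphorylate the translation factor eIF2, which slows most protein synthesis while ATF4 mRNA is translated more. ATF4 protein then switches on genes for amino acid supply, together with ATF3, ATF5 and DDIT3 (CHOP), and prolonged DDIT3 activity is linked to cell death. Since ATF4 is controlled largely at translation, the level of its mRNA does not report the amount of the protein.

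ATF4 works as a dimer, often with a C/EBP family member, on a composite element of the form TGATGNAA. RefSeq promoter windows (GRCh38.p14, 250 bases before to 50 bases after each annotated start) were found for all 10 genes, 19 windows in all. Of those 19 windows, 3 held the element on either strand, 1 each of ASNS, CHAC1 and ATF3, as did 1270 of 35116 windows of all genes (3.62%). The 100 bases around each match are shown with the match in capitals, and whether ATF4 acts through them was not tested.
ATF3: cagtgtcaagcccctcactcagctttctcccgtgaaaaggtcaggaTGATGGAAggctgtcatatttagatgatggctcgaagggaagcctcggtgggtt
ASNS: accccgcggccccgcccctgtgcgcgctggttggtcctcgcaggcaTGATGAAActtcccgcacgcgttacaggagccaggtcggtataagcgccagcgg
CHAC1: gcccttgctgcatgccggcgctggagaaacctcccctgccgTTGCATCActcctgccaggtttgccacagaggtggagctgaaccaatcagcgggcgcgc
The ATF3 stretch is at chr1:212565170-212565269 on the plus strand, and its match runs from 191 to 184 bases before an annotated start. The ASNS stretch is at chr7:97872423-97872522 and is written along the minus strand, with the match 68 to 61 bases before the start. The CHAC1 stretch is at chr15:40953221-40953320 on the plus strand, and its match lies on the opposite strand, 209 to 202 bases before the start. A match describes these letters only, and its absence from the other windows says nothing of the factors that act there.

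Total counts ran from 17782556 to 30585059 per library, with a median of 22289428. The widest gap within a line was in SKOV3_TR, with 29397993 counts in vehicle and 17782556 with QC. Levels are given in CPM, the count of a gene relative to its library's TMM-scaled total, and a lower level in bulk RNA cannot tell fewer expressing cells from less RNA per cell. Of 4 epithelial markers, KRT8 and KRT18 were present in all 6 lines (mean levels of 170 to 3557 CPM), whereas EPCAM and CDH1 were near or at 0 in HeyA8 (2.39 and 0.147 CPM) and HeyA8_MDR (0.026 and 0 CPM), low in SKOV3_TR (3.58 and 7.16 CPM) and between 46.4 and 466 CPM in the other lines. Of 4 Mullerian markers, PAX8 averaged 286 to 455 CPM in the HeyA8 and SKOV3 families but 9.67 and 22.2 CPM in OV2008 and OV2008_C13. SOX17 had the same split (7.39 to 65.6 CPM against 0 and 0.038). WT1 was at 1.13 to 4.60 CPM in all lines without it, and MUC16 at 9.82 CPM in SKOV3 and 0.089 to 1.75 CPM elsewhere. OV2008 and OV2008_C13 carried the squamous markers TP63 (322 and 123 CPM) and KRT5 (10066 and 2805 CPM). KRT5 was also at 37.5 CPM in SKOV3_TR. Whether OV2008 and OV2008_C13 are of ovarian origin was not tested. The HeyA8 QC library stood apart in resembling HeyA8_MDR. For 41 genes that HeyA8_MDR expressed 8-fold or more above HeyA8 in vehicle, QC had shifted HeyA8 by a median of 38.8% of the distance to HeyA8_MDR, and for 84 genes 8-fold or more below, by 51.3%, whereas the same measure ran from -6.87% to 23.8% in the other 5 lines. Values are therefore also given without HeyA8 where a result rests on it.

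In the vehicle libraries, ATF4 was the most abundant of the 10 per length of transcript, with a median over the 6 lines of 173 CPM per kb of exon. DDIT4 (48.8 CPM per kb), CEBPB (45.9), DDIT3 (43.0) and TRIB3 (28.6) followed, and ATF5 (13.1), CHAC1 (8.46), ATF3 (5.09), SESN2 (2.7) and ASNS (0.914) were lower. The spread between lines was small for ATF4 and ATF5, whose highest vehicle level was 1.80 and 1.87 times the lowest, and wide for CHAC1 (11.2 times) and SESN2 (8.39 times). DDIT4, CEBPB and DDIT3 differed in median by less than any of them varied between lines.

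The first comparison asked how 6 h of QC moved the 10 genes across the lines. ATF3 had the largest higher level with QC (2.78-fold over the 6 lines), DDIT3 was 1.5-fold higher, ASNS was at 0.591 and ATF4 at 0.765 of vehicle, and none of the 10 had the same direction in all 6 lines, which 4.13% (higher) and 4.6% (lower) of all genes had. No gene of the 18720 (0%) passed an adjusted p of 0.05 in edgeR's quasi-likelihood test with 1 term per line, so none of these values is a call. At an unadjusted p under 0.05, 2 of the 10 were higher (ATF3 and DDIT3) and 2 lower (ATF4 and ASNS), against 7.99% and 7.18% of all genes, 15.2% in all. DESeq2 with the same terms called 522 genes at an adjusted p of 0.05, ATF3 being the only member among them. The median change of the 10 was -0.20 on the log2 scale, beside 0.00 over all genes, and came to -0.041 without HeyA8 and -0.056 without SKOV3_TR, each with 5 members below and 5 above 0. Without SKOV3_TR, 3 members were higher and none lower at an unadjusted p under 0.05, beside 1504 higher and 1348 lower of 19307 genes. Without SKOV3, 2 members were higher and 5 lower, beside 1576 higher and 1527 lower of 20007 genes.

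**Figure D1:**
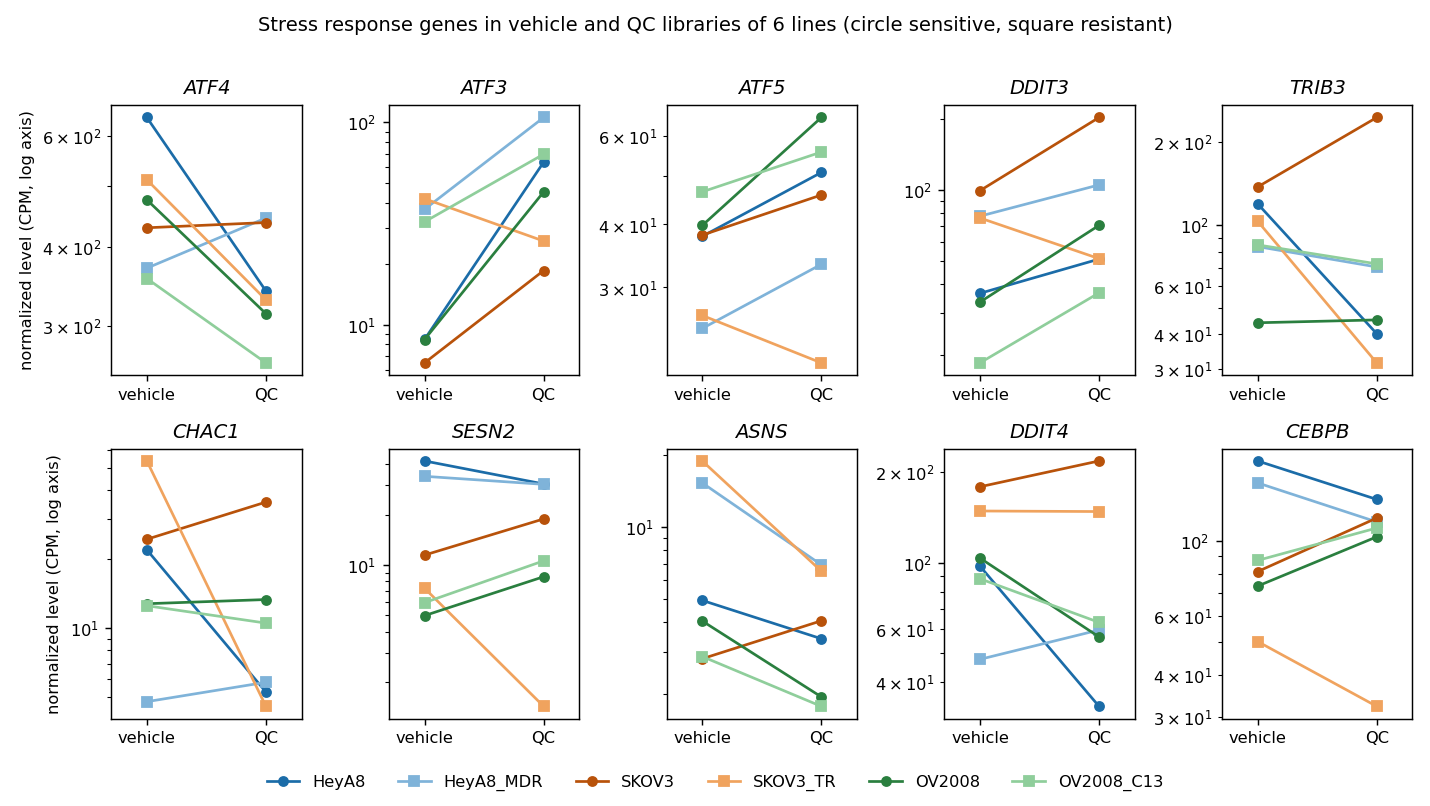
Level of each of the 10 genes (CPM, log axis, a scale of its own in each panel) in the vehicle and the QC library of 6 lines. Each line joins the 2 libraries of a cell line, circles are sensitive and squares resistant lines, and there is 1 library per point. ATF3 is higher with QC in every line but SKOV3_TR, while CHAC1 and SESN2 are far lower with QC in SKOV3_TR.

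ATF3 is a stress-induced factor of the ATF/CREB family that binds target promoters as a dimer and can repress them. Its vehicle levels were 8.46 CPM in HeyA8, 6.48 in SKOV3 and 8.46 in OV2008, against 37.2 in HeyA8_MDR, 41.9 in SKOV3_TR and 32.3 in OV2008_C13. With QC its levels were 63.6 CPM in HeyA8, 18.5 in SKOV3, 45.3 in OV2008, 106 in HeyA8_MDR, 25.9 in SKOV3_TR and 69.6 in OV2008_C13. ATF3 was thus at least 2-fold higher with QC in 5 lines and lower only in SKOV3_TR. The log2 changes were 2.90 in HeyA8, 2.41 in OV2008, 1.5 in both SKOV3 and HeyA8_MDR, 1.11 in OV2008_C13 and -0.69 in SKOV3_TR. Over the 6 lines the change was 1.47 on the log2 scale with a standard error of 0.36 (adjusted p = 0.153, edgeR's quasi-likelihood test). It was 1.88 without SKOV3_TR and 1.18 without HeyA8, and DESeq2 gave 1.49 with an adjusted p of 0.0034.

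DDIT3, also called CHOP, is a C/EBP-related factor that ATF4 induces. Its vehicle levels were 36.4 CPM in HeyA8, 99.2 in SKOV3, 33.4 in OV2008, 77.3 in HeyA8_MDR, 76.0 in SKOV3_TR and 18.5 in OV2008_C13. With QC they were 50.9 CPM in HeyA8, 203 in SKOV3, 70.7 in OV2008, 105 in HeyA8_MDR, 51.1 in SKOV3_TR and 36.6 in OV2008_C13. The gene was higher with QC in the same 5 lines as ATF3 and lower in SKOV3_TR, where the fold was 0.673. The change passed 2-fold in SKOV3 (2.04) and OV2008 (2.11) and was just under it in OV2008_C13 (1.98). Over the 6 lines DDIT3 was higher by 0.58 on the log2 scale with a standard error of 0.19 (adjusted p = 0.203, edgeR's quasi-likelihood test), and by 0.80 without SKOV3_TR. In the GENCODE annotation lifted to GRCh37, 27.2% of the exon bases of DDIT3 lie opposite exons of MARS1. The strand setting of the counting is not given in the sources used here, so reads of these partners may not have been told apart.

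ATF5, a close relative of ATF4 that is also controlled at translation, moved the same way in the same lines but less. Its vehicle levels were 37.9 CPM in HeyA8, 38.1 in SKOV3, 39.8 in OV2008, 24.9 in HeyA8_MDR, 26.4 in SKOV3_TR and 46.4 in OV2008_C13. With QC they were 50.7, 45.8, 65.2, 33.3, 21.3 and 55.7 CPM in the same order. No line reached 2-fold, and the change over the 6 lines was 0.30 on the log2 scale with a standard error of 0.14 (adjusted p = 0.335, edgeR's quasi-likelihood test). Of the exon bases of ATF5, 19.5% lie opposite exons of NUP62, which held 29614 counts over the 12 libraries, so the same doubt on strand touches its level. ATF3, ATF5 and DDIT3 were the 3 of 10 members higher in at least 5 of the 6 lines, a pattern found in 16% of all genes.

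ATF4 mRNA itself was lower with QC in 4 of the 6 lines. Its vehicle levels were 643 CPM in HeyA8, 429 in SKOV3, 476 in OV2008, 370.4 in HeyA8_MDR, 512 in SKOV3_TR and 357 in OV2008_C13. With QC they were 341 CPM in HeyA8, 438 in SKOV3, 313 in OV2008, 445 in HeyA8_MDR, 329.8 in SKOV3_TR and 262 in OV2008_C13. ATF4 was at 0.530 of its vehicle level in HeyA8, 0.644 in SKOV3_TR and 1.20 in HeyA8_MDR, and in SKOV3 the log2 ratio of 0.028 was within counting error (95% interval -0.013 to 0.068). The change over the 6 lines was -0.39 on the log2 scale with a standard error of 0.16 (adjusted p = 0.271, edgeR's quasi-likelihood test), and -0.28 without HeyA8.

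CEBPB, a C/EBP factor that can pair with ATF4 and DDIT3, split the lines by family rather than by resistance in 4 of 6. It was lower with QC in both HeyA8 lines (from 173 to 133 CPM in HeyA8 and from 149 to 114 in HeyA8_MDR) and higher in both OV2008 lines (from 73.5 to 103 CPM in OV2008 and from 87.6 to 109 in OV2008_C13). In the SKOV3 family the directions were opposite, from 81.2 to 117 CPM in SKOV3 and from 50.3 to 32.3 CPM in SKOV3_TR. The change over the 6 lines was -0.010 on the log2 scale with a standard error of 0.17, and its sign turned when HeyA8 (0.066), HeyA8_MDR (0.053) or SKOV3_TR (0.11) was left out. CEBPB-AS1 lies opposite 12.6% of its exon bases and held 554 counts over the 12 libraries.

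**Figure D2:**
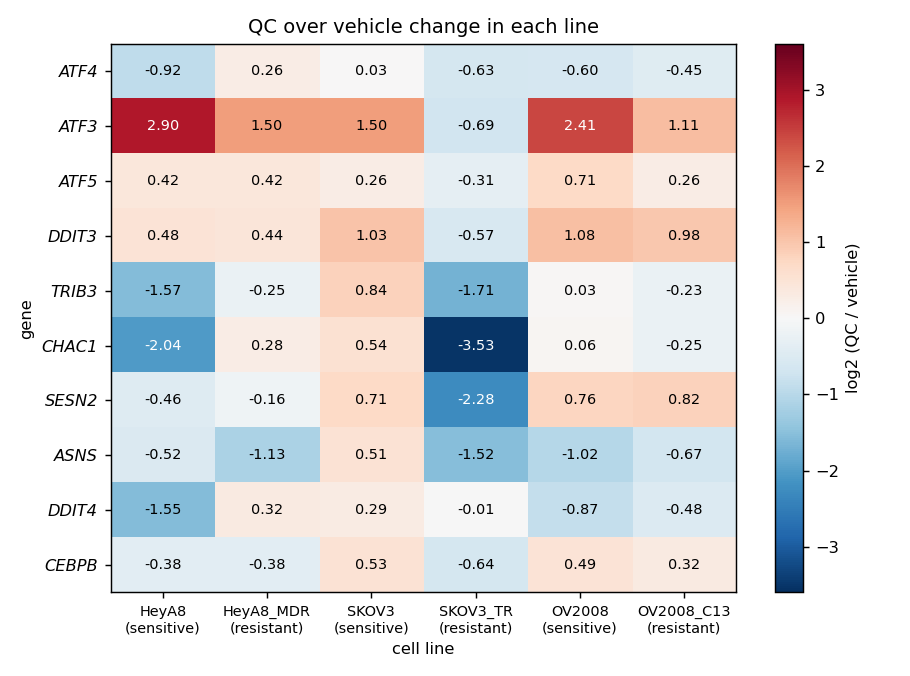
The log2 ratio of QC to vehicle for each of the 10 genes (vertical axis) in each of the 6 lines (horizontal axis), printed in each cell and shaded from blue (lower with QC) to red (higher with QC). The SKOV3 column is at or above 0 throughout and the SKOV3_TR column at or below 0, with its lowest value at -3.53 for CHAC1.

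TRIB3, a pseudokinase that DDIT3 and ATF4 induce and that binds AKT and ATF4, went from 119.5 CPM in vehicle to 40.2 with QC in HeyA8 and from 103 to 31.5 in SKOV3_TR. In SKOV3 it went the other way, from 138 to 246 CPM. The remaining lines stayed within 0.25 of no change on the log2 scale, at 83.5 and 70.4 CPM in HeyA8_MDR, 44.1 and 45.1 in OV2008, and 84.7 and 72.2 in OV2008_C13. TRIB3 therefore showed 2 lines past 2-fold lower and none past 2-fold higher, and its change over the 6 lines was -0.47 on the log2 scale with a standard error of 0.28 (adjusted p = 0.449, edgeR's quasi-likelihood test). It was -0.25 without HeyA8 and -0.23 without SKOV3_TR.

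CHAC1, an enzyme that degrades glutathione and is a classical ATF4 target, had the widest range of the 10, over 4.07 units of log2 change. Its level went from 53.5 CPM in vehicle to 4.56 with QC in SKOV3_TR, which is 1812 counts against 86, and from 21.9 to 5.26 CPM in HeyA8. It went from 24.4 to 35.4 CPM in SKOV3. In HeyA8_MDR (4.78 and 5.81 CPM) and OV2008 (12.8 and 13.3 CPM) no change was detectable at this depth, the 95% counting intervals of the log2 ratio being -0.14 to 0.71 and -0.19 to 0.31. In OV2008_C13 the levels were 12.5 and 10.5 CPM. The change over the 6 lines was -0.75 on the log2 scale with a standard error of 0.46 (adjusted p = 0.465, edgeR's quasi-likelihood test), and -0.26 without SKOV3_TR or -0.46 without HeyA8. Intervals of this kind are exact binomial ones and cover counting error only.

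SESN2, a sestrin that restrains mTORC1 when leucine is scarce, was higher with QC in SKOV3 (from 11.5 to 18.8 CPM), OV2008 (from 4.98 to 8.51) and OV2008_C13 (from 5.96 to 10.6). In SKOV3_TR it went from 7.27 to 1.43 CPM, or from 246 to 27 counts, a log2 ratio of -2.28 (95% counting interval -2.97 to -1.77). The HeyA8 lines had the highest vehicle levels, and went from 41.8 to 30.5 CPM in HeyA8 and from 33.9 to 30.3 in HeyA8_MDR. The change over the 6 lines was -0.022 with a standard error of 0.33, and 0.32 without SKOV3_TR, on the log2 scale.

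DDIT4 (REDD1), another restraint on mTORC1 under stress, was the member with the smallest change in SKOV3_TR, at 149 CPM in vehicle and 148 with QC. The level went from 97.4 to 33.3 CPM in HeyA8, from 104 to 56.6 in OV2008 and from 88.4 to 63.3 in OV2008_C13. It went from 47.7 to 59.7 CPM in HeyA8_MDR and from 179 to 218 in SKOV3. The change over the 6 lines was -0.38 on the log2 scale with a standard error of 0.22 (adjusted p = 0.435, edgeR's quasi-likelihood test), and -0.15 without HeyA8.

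ASNS, the enzyme that makes asparagine from aspartate and glutamine, was lower with QC in 5 of the 6 lines, the only member with that pattern, which 16.3% of all genes shared. Its level went from 4.92 to 3.40 CPM in HeyA8, from 15.3 to 6.93 in HeyA8_MDR, from 18.9 to 6.52 in SKOV3_TR, from 4.03 to 1.94 in OV2008 and from 2.86 to 1.77 in OV2008_C13. SKOV3 was the exception, from 2.80 to 4.04 CPM. The change over the 6 lines was -0.76 on the log2 scale with a standard error of 0.26 (adjusted p = 0.208, edgeR's quasi-likelihood test), and -1.01 without SKOV3. The counts behind these values were low, from 44 in the OV2008 QC library to 639 in SKOV3_TR vehicle, and 49.3% of its exon bases are shared with a long noncoding gene on the same strand (ENSG00000284707), which itself held 549 counts over the 12 libraries. Counting may have left out or split reads in the shared bases, so the level of ASNS is uncertain. The study had picked ASNS for follow-up from these same libraries, so its direction here is not independent evidence. Apart from these libraries, the study reported lower ASNS with QC by qPCR, and lower protein by western blot in HeyA8_MDR and other ovarian cancer lines.

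SKOV3 and its partner SKOV3_TR moved in opposite directions for all 10 genes. Every member was higher with QC in SKOV3, with log2 ratios of 0.028 to 1.5, and every member was lower in SKOV3_TR, with log2 ratios of -0.0061 to -3.53. Of all genes, 23.4% were higher in SKOV3 and lower in SKOV3_TR. The smallest of these 20 values, ATF4 in SKOV3 and DDIT4 in SKOV3_TR, did not differ from 0 beyond counting error. The medians of the 10 were 0.53 in SKOV3 and -0.67 in SKOV3_TR, where the medians over all genes were 0.01 and -0.02. With 1 library per line and treatment, a difference between lines cannot be told apart from a difference between libraries, and whether the gap in total counts between the SKOV3_TR libraries had a part in it was not tested.

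The other lines were mixed. Of the 10, 3 were higher and 7 lower in HeyA8 (median log2 ratio -0.49), 6 higher and 4 lower in HeyA8_MDR (0.27), 7 higher and 3 lower in OV2008 (0.27), and 5 higher and 5 lower in OV2008_C13 (0.02). In HeyA8, 1 member was at least 2-fold higher (ATF3) and 3 at least 2-fold lower (TRIB3, CHAC1 and DDIT4), against 10.2% and 6.95% of all genes. In SKOV3_TR none was 2-fold higher and 4 were 2-fold lower (TRIB3, CHAC1, SESN2 and ASNS), against 3.64% and 5.73%. In SKOV3, ATF3 and DDIT3 were 2-fold higher and none was 2-fold lower (4.15% and 4.12% of all genes). In OV2008, ATF3 and DDIT3 were 2-fold higher and ASNS 2-fold lower (9.86% and 8.12%), in HeyA8_MDR ATF3 was 2-fold higher and ASNS 2-fold lower (7.12% and 9.49%), and in OV2008_C13 ATF3 was 2-fold higher and none 2-fold lower (8.24% and 3.16%). For HeyA8, the QC level of CHAC1 lay 97.2% of the way, and that of DDIT3 35.3% of the way, from the HeyA8 to the HeyA8_MDR vehicle level, and the other 8 members lay outside the range between them.

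The second comparison asked whether resistant lines answered QC differently from sensitive ones. ATF3 gave the largest difference of the 10. Its mean log2 change was 2.27 ± 0.71 (SD, n = 3) in the sensitive and 0.64 ± 1.17 (SD, n = 3) in the resistant lines, a difference of -1.63 with a standard error of 0.54 (adjusted p = 0.9998, edgeR's quasi-likelihood test). It was the only member with an unadjusted p under 0.05, which 1.16% of all genes had (0.566% with the resistant lines higher and 0.593% with them lower), and no gene (0%) passed after adjustment in edgeR and 1 in DESeq2. The difference was -0.95 without SKOV3_TR, the line in which ATF3 was lower with QC. The 3 resistant lines had the 3 highest vehicle levels and not the 3 highest QC levels, and the same vehicle libraries enter this difference and the one described next.

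None of the other 9 genes had an unadjusted p under 0.05 for the difference (adjusted p of 0.9998 for each, edgeR's quasi-likelihood test). DDIT3 changed by 0.86 ± 0.33 (SD, n = 3) in the sensitive and 0.28 ± 0.79 (SD, n = 3) in the resistant lines, a difference of -0.58 with a standard error of 0.37, and of -0.12 without SKOV3_TR or -0.93 without OV2008_C13. ASNS changed by -0.34 ± 0.78 (SD, n = 3) and -1.11 ± 0.43 (SD, n = 3), a difference of -0.79 with a standard error of 0.50, and of -0.35 without SKOV3. DDIT4 went the other way, with -0.71 ± 0.93 (SD, n = 3) in the sensitive and -0.05 ± 0.40 (SD, n = 3) in the resistant lines, a difference of 0.66 that was 0.24 without HeyA8 and 1.17 without SKOV3. The differences of TRIB3 (-0.50), CHAC1 (-0.66) and SESN2 (-0.74) each turned positive when SKOV3_TR was left out, at 0.0078, 0.47 and 0.026. They were larger without HeyA8, at -1.16, -1.40 and -1.16. The differences of ATF4 (0.22), ATF5 (-0.34) and CEBPB (-0.45) had standard errors of 0.33, 0.28 and 0.33. Each rested on single lines: that of ATF4 was 0.017 without HeyA8 and -0.048 without HeyA8_MDR, that of ATF5 -0.094 without SKOV3_TR, and that of CEBPB -0.21 without SKOV3_TR and -0.74 without HeyA8. The median difference of the 10 was -0.54, beside -0.02 over all genes, but -0.043 without SKOV3_TR, with 5 members below and 5 above 0.

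The third comparison set the vehicle levels of the resistant lines against those of their own partners. ATF3 was 4.39-fold higher in HeyA8_MDR than in HeyA8, 6.47-fold higher in SKOV3_TR than in SKOV3 and 3.81-fold higher in OV2008_C13 than in OV2008. The 3 resistant vehicle levels (37.1 ± 4.84 CPM, SD, n = 3) did not overlap the 3 sensitive ones (7.80 ± 1.14 CPM, SD, n = 3), and ATF3 was the only one of the 10 of which that was true. Of all genes, 1.86% had every resistant level above every sensitive one, 1.7% every resistant level below, and 0.939% were at least 2-fold higher in each resistant line. The fitted difference was 2.26 on the log2 scale with a standard error of 0.38 (adjusted p = 0.975, edgeR's quasi-likelihood test). No gene of 16091 (0%) passed after adjustment in that test, 606 had an unadjusted p under 0.05 (3.77%, or 1.9% higher and 1.87% lower in the resistant lines), and DESeq2 called 45 genes, ATF3 among them with an adjusted p of 0.00011. The estimate lay between 2.05 and 2.45 when each pair of lines was left out in turn. On simulated data, this edgeR test passed 0% of 2-fold and 6.38% of 4-fold changes after adjustment. A high adjusted p here is therefore no sign of equal levels.

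**Figure D3:**
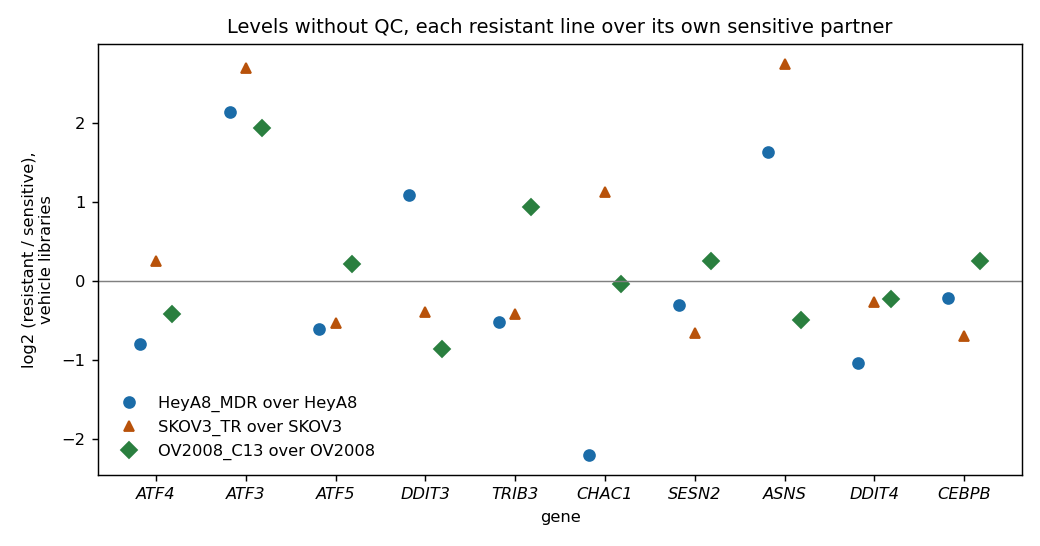
The log2 ratio of each resistant line to its sensitive partner in the vehicle libraries, for the 10 genes along the horizontal axis. Each point is 1 pair of libraries, and the line at 0 marks equal levels. The 3 ATF3 points lie between 1.93 and 2.69, while the points of each other gene but DDIT4 fall on both sides of 0.

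With QC the ATF3 gap narrowed in each pair, to 1.66-fold in the HeyA8 family, 1.40-fold in the SKOV3 family and 1.54-fold in the OV2008 family. ASNS, whose counts are uncertain, was 3.1-fold higher in HeyA8_MDR and 6.73-fold higher in SKOV3_TR than in the partner but at 0.710 of it in OV2008_C13, and its difference of 1.35 had a standard error of 0.79 (adjusted p = 0.975, edgeR's quasi-likelihood test). It was 0.60 without the SKOV3 pair and 2.23 without the OV2008 pair. CHAC1 was at 0.218 of the partner in HeyA8_MDR, 2.19-fold higher in SKOV3_TR and level in OV2008_C13 (0.980). DDIT3 was 2.12-fold higher in HeyA8_MDR and lower in SKOV3_TR (0.766) and OV2008_C13 (0.553). DDIT4 was lower in all 3 resistant lines, at 0.490, 0.831 and 0.853 of the partner in the HeyA8, SKOV3 and OV2008 families, with levels that overlapped between the groups and an adjusted p of 0.975 in edgeR's quasi-likelihood test. The differences of ATF4, ATF5, TRIB3, SESN2 and CEBPB lay between -0.31 and 0.0055, each with a standard error larger than its size.

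The other genes of the response were read from 6 lists that hold 63 genes, again with no gene past the adjusted threshold. Of the 10 enzymes of amino acid synthesis and its folate supply, all 10 had a log2 change below 0 over the 6 lines and 7 an unadjusted p under 0.05, against 7.18% of all genes, with a median of -0.53. Without HeyA8 the median was -0.45 and 5 had an unadjusted p under 0.05. That number was also 5 without OV2008, and it was 9 without SKOV3. The number of all genes lower at such a p moved as well. It was 1345 of 18720 over the 6 lines, 1076 of 19890 without HeyA8, 961 of 20213 without OV2008 and 1527 of 20007 without SKOV3. PHGDH, the first enzyme of serine synthesis, was lower in all 6 lines, from 317 to 95.6 CPM in HeyA8, from 306 to 119.6 in SKOV3_TR and from 121 to 37.7 in OV2008, but only from 209 to 195 in SKOV3. Its change was -1.01 with a standard error of 0.21 (adjusted p = 0.141, edgeR's quasi-likelihood test). PHGDH too had been picked by the study from these libraries, and the study reported it lower by qPCR and western blot as well. PYCR1, which closes proline synthesis, changed by -0.71 (standard error 0.18). Like ASNS, both enzymes had their highest ratio in SKOV3.

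Of 13 genes for cytosolic aminoacyl-tRNA synthetases and a tRNA exporter, all 13 had a change below 0, 6 with an unadjusted p under 0.05 (7.18% of all genes were lower by that rule), with a median of -0.33. Without HeyA8 the median was -0.19, 12 of the 13 were below 0 and IARS1 above it, and 3 had an unadjusted p under 0.05. Other lines mattered too. Without SKOV3_TR the median was -0.29, with 12 below 0 and 3 genes at such a p. That number was 5 without OV2008 and 7 without SKOV3 or without HeyA8_MDR. Of all genes, 1348 of 19307 were lower at such a p without SKOV3_TR and 1188 of 20081 without HeyA8_MDR. For the other fits here, the numbers over all genes are those given for the enzymes. EPRS1, which charges glutamate and proline, changed by -0.53 (standard error 0.14) and was lower in all 6 lines, and XPOT, which exports tRNA from the nucleus, by -0.61 (standard error 0.17). Of 8 amino acid transporters, 7 were below 0 and 3 had an unadjusted p under 0.05, with a median of -0.44 (-0.36 without HeyA8, with 2 genes at such a p). Without OV2008, 2 transporters had such a p, and without SKOV3, 5 had. SLC1A5, a glutamine transporter, changed by -0.77 (standard error 0.20). SLC7A5, the leucine carrier LAT1, changed by -1.11 (standard error 0.39), from 686 to 94.7 CPM in HeyA8 and from 5597 to 989 in OV2008, but from 1611 to 2696 CPM in SKOV3.

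For the stress sensors, later targets and ER chaperone branch, the shares of all genes at an unadjusted p under 0.05 were 7.99% higher and 7.18% lower. Of 8 genes for the eIF2 kinases, their partners and the eIF2 phosphatase, 1 was higher and 1 lower by that rule. The higher was PPP1R15A (GADD34), the inducible phosphatase subunit that ends the response, at 0.64 with a standard error of 0.20, higher in 5 lines and lower in SKOV3_TR, as ATF3, ATF5 and DDIT3 were. The lower was DELE1, which relays mitochondrial stress to an eIF2 kinase, at -0.35 with a standard error of 0.12 and lower in all 6 lines. Of 12 other targets and partners, 3 were higher and 2 lower. Without HeyA8 these numbers were 3 and 0, beside 1317 higher and 1076 lower of 19890 genes. Among the higher were the secreted stress cytokine GDF15 (1.20, standard error 0.28) and the death receptor TNFRSF10B (0.50, standard error 0.15). Each of these was higher in 5 lines and lower in SKOV3_TR. Of 12 genes listed for the ER chaperone branch of the unfolded protein response, not all of them chaperones, 1 was higher and 2 lower. DNAJB9, an ER cochaperone, was higher in all 6 lines (0.46, standard error 0.15), and PDIA4, a disulfide isomerase, changed by -0.46 (standard error 0.17) with opposite signs in SKOV3_TR (0.39) and SKOV3 (-0.86).

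**Figure D4:**
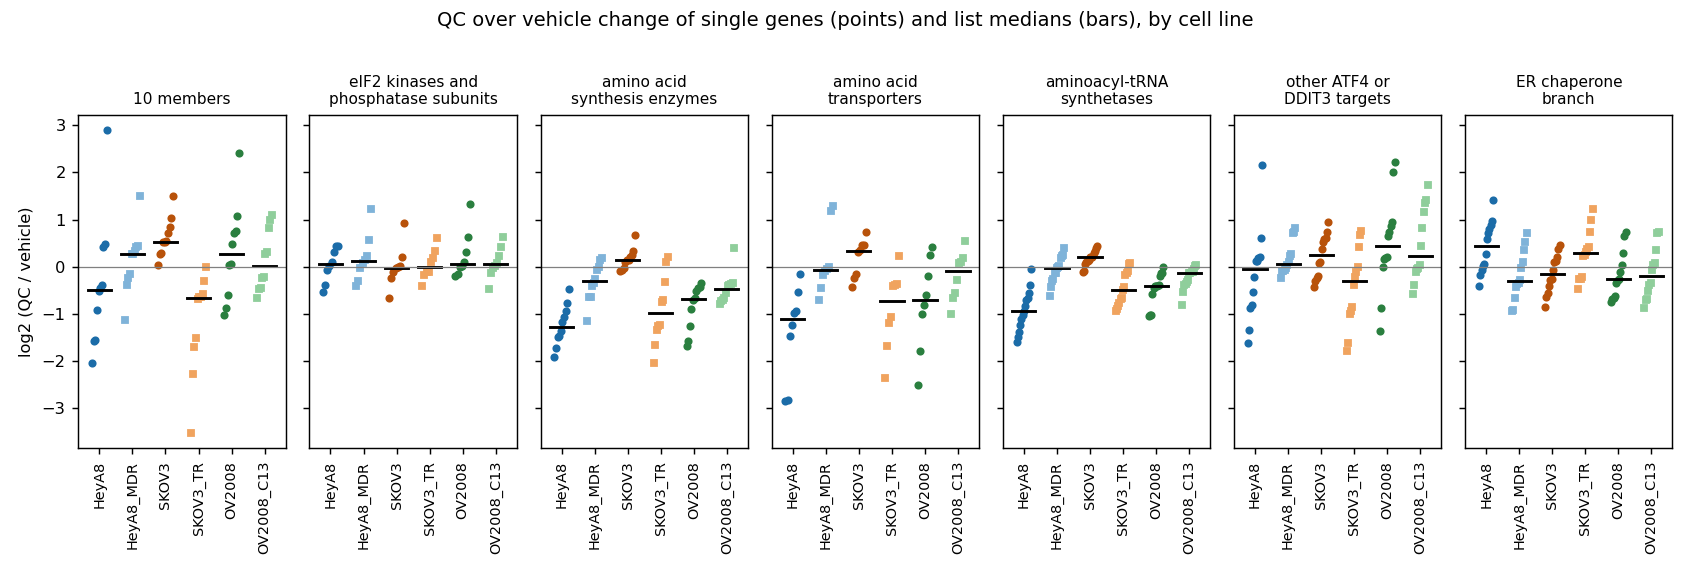
The log2 ratio of QC to vehicle (vertical axis) of the single genes of the 10 members and of the 6 lists, by cell line. Each point is 1 gene and the bar is the median of the list. In the amino acid synthesis panel the medians are below 0 in each line but SKOV3, with -1.27 in HeyA8 and 0.14 in SKOV3, and the transporter and synthetase panels have their highest medians in SKOV3 as well.

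Among the 10 members, the log2 changes of DDIT3 and SESN2 ran most alike over the 6 lines (r = 0.99), then TRIB3 and CHAC1 (r = 0.92), and those of ATF3 and DDIT4 were the most opposed (r = -0.63). ATF4 ran closest to DDIT4 (r = 0.84) and was at r = 0.22 with DDIT3 and -0.13 with ATF3. These are descriptions over 6 points that share a vehicle library within each ratio, and SKOV3_TR was the lowest point for 8 of the 10 genes. Of 8081 genes with a mean of at least 20 CPM, the 3 whose 6 changes were most like those of DDIT3 were PTPDC1 (r = 0.99), ZNF274 (r = 0.99) and TTC7A (r = 0.98). Of 8082 genes, those most like ASNS were the clock repressor CRY1 (r = 0.96), the Integrator subunit INTS9 (r = 0.95) and the glycosyltransferase RFNG (r = 0.95). The size of their changes was mostly smaller. On the log2 scale PTPDC1 ran from -0.98 in SKOV3_TR to 0.22 in OV2008_C13, and CRY1 from -0.15 in SKOV3_TR to 0.66 in SKOV3. An r of this kind leaves out the mean, so the direction of change can differ. CRY1 was higher with QC in HeyA8 (0.32), HeyA8_MDR (0.21), OV2008 (0.17) and OV2008_C13 (0.28), where ASNS was lower. PTPDC1 was lower in HeyA8 (-0.21) and HeyA8_MDR (-0.28), where DDIT3 was higher. These genes were picked as the highest r of 8081 or 8082 over 6 points.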

How the data were processed

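PolyA RNA of 12 samples was sequenced from TruSeq RNA libraries. The deposited table holds raw read counts per Ensembl gene that the authors made. The submitters' processing notes name STAR 2.7.3a, HTSeq 0.6.1p1 and GRCh38.p13, whereas the study's methods name TopHat and hg19 with HTSeq, and the annotation and strand setting are not given in the sources used here. Symbols were paired with 58663 of 60669 IDs, and the 2006 others held 0.132% of counts.

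TMM factors (edgeR 4.0.16, R 4.3.3), log2 ratios with a prior count of 2, and two-sided quasi-likelihood tests with Benjamini-Hochberg adjustment at 0.05 were computed on genes kept by filterByExpr (minimum count 10). The QC effect and its difference between groups used 12 libraries with 1 term per line, since both libraries of a line share its cells. Their deviations from the means of their groups (sensitive or resistant lines, vehicle or QC) correlated at 0.893 to 0.929. The vehicle comparison used 6 libraries with 1 term per family, whereas the other comparisons held no term linking the QC changes of partner lines. Partner lines therefore counted as independent there. P-values of the QC effect and its difference measure the spread of the QC change between lines, as each line and treatment has 1 library. Those of the vehicle comparison measure the spread of the resistant-to-sensitive ratio between families. The scripts were tested on simulated data with 1 common spread for all genes. After adjustment, 74.0% of 2-fold and 97.9% of 4-fold changes passed for the QC effect. For its difference between groups 4.17% and 62.5% passed, and for the vehicle comparison 0% and 6.38%. A high adjusted p in the last 2 comparisons is therefore no sign of equal levels or equal changes.

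The members, lists and tests were chosen with earlier results of these data known. Named genes were the 10 members, the 2 genes of each list with the smallest p, and the 3 genes with the highest r to DDIT3 or ASNS. Exon overlaps were read from GENCODE lifted to GRCh37. Alternatives were DESeq2 1.42.0 with the same terms, its size factors, library size alone, no filter, a floor of 10 counts per library, no replicate block, a prior count of 0.5, and leaving out each line.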

Additional observations from a re-analysis of the deposited data

How the results depend on the processing

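Of 120 alternative values of the QC effect for the 10 genes, 111 kept direction and side of the adjusted threshold, as did 114 of 120 for the difference between groups and 77 of 90 for the vehicle comparison. The direction reversed in 5, 5 and 11 of these values. Since edgeR called no gene to begin with, keeping the side of the threshold is no sign of a stable result. Genes at an adjusted p under 0.05 numbered 0 in each comparison by edgeR, 522, 1 and 45 by DESeq2, and 791, 5 and 146 with no filter, where the calls included ATF3 in all 3 comparisons and CHAC1 (-0.74) and DDIT3 (0.58) in the first. With no replicate block, genes at an unadjusted p under 0.05 numbered 108, 6 and 104 in place of 2840, 217 and 606. The difference gave 501 such genes of 39590 tested with no filter and 120 of 11602 with a floor of 10 counts per library, beside 217 of 18720. The vehicle comparison gave 1058 of 16091 by DESeq2 and 1583 of 36276 with no filter, beside 606 of 16091. The filters change the number of genes tested, so their counts are to be read with it. What else set the settings apart was not tested.

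Leaving out each line gave 0 to 1 adjusted calls for the QC effect (1 without HeyA8_MDR) and 187 to 540 unadjusted ones for the difference (419 without SKOV3, 466 without OV2008, 540 without OV2008_C13). Signs turned among these fits. The QC effect lay between -0.21 and 0.32 for SESN2 and between -0.13 and 0.11 for CEBPB. The difference lay between -0.048 and 0.50 for ATF4, -1.16 and 0.069 for TRIB3, -1.43 and 0.47 for CHAC1, and -1.42 and 0.026 for SESN2. In the vehicle comparison, leaving out a pair gave -0.62 to 0.39 for DDIT3, -0.43 to 0.27 for TRIB3, -1.09 to 0.56 for CHAC1 and -0.42 to 0.035 for CEBPB. With no replicate block DDIT3 came to 0.049, TRIB3 to -0.14 and CHAC1 to 0.29, and TRIB3 came to -0.0051 by DESeq2, -0.0052 with its size factors and -0.0046 with no filter. Ratios within a line changed no sign, but scaling by library size alone put ASNS in OV2008 (-0.97) inside and DDIT3 in OV2008_C13 (1.14) past 2-fold, and moved the median ratio of all genes from -0.0029 to -0.14 in HeyA8_MDR, from 0.023 to -0.096 in SKOV3_TR and from -0.058 to 0.098 in OV2008_C13.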
